A study of Homo sapiens with 2 samples.

Results

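The genes described here are 46 regulators of pre-mRNA splicing, of 27685 genes in the deposited annotation. The members were set by gene name, with earlier results of these data known. They are all genes whose current NCBI symbol starts with SRSF and a digit (12 genes) or with HNRNP (26 genes). By symbol this takes in HNRNPUL2-BSCL2, a noncoding readthrough entry. TRA2A, TRA2B, CLK1, CLK2, CLK3, CLK4, SRPK1 and SRPK2 (8 genes) were added, and 5 pseudogenes with such symbols were left out. The cells were PLC/PRF/5, a long established line of human hepatocellular carcinoma, kept for 24 h with 6 µM JIB-04, an inhibitor of Jumonji histone demethylases, or with its solvent DMSO as control, and their mRNA was sequenced. There was 1 library per condition, so no test between conditions was possible and no difference below has a replicate check. A sample label calls the control cells untreated, whereas the title of that library names DMSO. Both libraries came from the same cell line, and the labels name no deleted or introduced gene.

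SR proteins, encoded by the SRSF genes, carry RNA-binding domains and a tail rich in arginine and serine, and mostly promote the inclusion of exons to which they bind. The hnRNP proteins coat nascent RNA and often repress nearby splice sites, and SRPK and CLK kinases phosphorylate the SR tail and thereby set where SR proteins reside and when they act. Many of these genes control their own level by splicing in an exon with a premature stop codon, a so-called poison exon, and RNA that holds such an exon is prone to nonsense-mediated decay.

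The level of a gene is the sum of the TPM (a transcript abundance corrected for length and scaled to the same total in each library) of its annotated transcripts. An estimated 28187793 fragments lay behind the DMSO library and 23721989 behind the JIB-04 library. Hepatocyte genes were present (10 of 10 markers at 1 TPM or more with DMSO and 9 of 10 with JIB-04, summing to 9382 and 5915 TPM). KRT18 (4484 and 2214 TPM) and KRT8 (3212 and 1912 TPM) made up most of that sum. APOB (103 and 32.9 TPM) and SERPINA1 (284 and 209 TPM) were also lower with JIB-04. So were ALB (9.74 and 4.53 TPM) and APOA1 (1.34 and 0.990 TPM), whereas AFP, FGB, TF and TTR were higher. The leukocyte gene PTPRC was at 0 in both libraries, the 3 endothelial markers summed to 0.538 and 0.342 TPM, and the 4 fibroblast markers to 17.5 and 11.5 TPM. Of the other leukocyte markers CD68 was listed with 97.0 and 137 TPM, CD14 with 6.05 and 1.37 TPM and CD3E with less than 1 TPM in each. Ratios compare the JIB-04 library with the DMSO library on a log2 scale, after 1 TPM was added to each level, and a gene was described where it reached 1 TPM in either library. The 95% intervals of single genes are exact binomial intervals on estimated fragments and cover counting error only, not the spread between cultures. Order-statistic intervals of medians describe the spread over the listed genes, and they do not cover the spread between cultures either. Over all 14450 genes described the median log2 ratio was -0.15. With JIB-04, 5.99% of them were higher by 2-fold or more and 6.88% were lower by that much.

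Most splicing regulators were somewhat lower in the JIB-04 library, most hnRNP genes among them, whereas 3 of the 4 CLK kinases were higher. Of the 46 genes 42 were described, and HNRNPCL1, HNRNPCL2, HNRNPCL3 and HNRNPCL4 were listed at 0 in both libraries. Where values are given in pairs, the DMSO library comes first. The 42 genes together held 6642 TPM in the control and 5527 TPM after JIB-04, which is 0.664% and 0.553% of all transcripts. Their log2 ratios had a median of -0.31 (95% order-statistic interval over the genes -0.49 to -0.15). The ratio was below 0 for 30 of the 42 (71.4%), beside 60.3% of all genes described. The counting interval lay wholly below 0 for 29 (69.0%, beside 46.3% of all genes) and wholly above 0 for 8 (19.0%, beside 28.0%). Intervals are narrower for abundant genes, and every described member rested on at least 145 estimated fragments with DMSO. None of the 42 was at least 2-fold higher (0%, beside 5.99% of all genes), and SRSF1 was the only gene at least 2-fold lower (2.38%, beside 6.88%). Differences of these regulators were thus mostly smaller than 2-fold. In bulk RNA, fewer cells of a kind and less RNA per cell cannot be told apart. When the JIB-04 values were scaled so that well expressed genes had a median ratio of 0 (a log2 shift of -0.15), 27 of the 42 stayed below 0, with a median of -0.16, beside 50.1% of all genes. Of all genes, 7.70% were then higher by 2-fold or more and 4.67% lower, and CLK1 passed 2-fold.

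**Figure D1:**
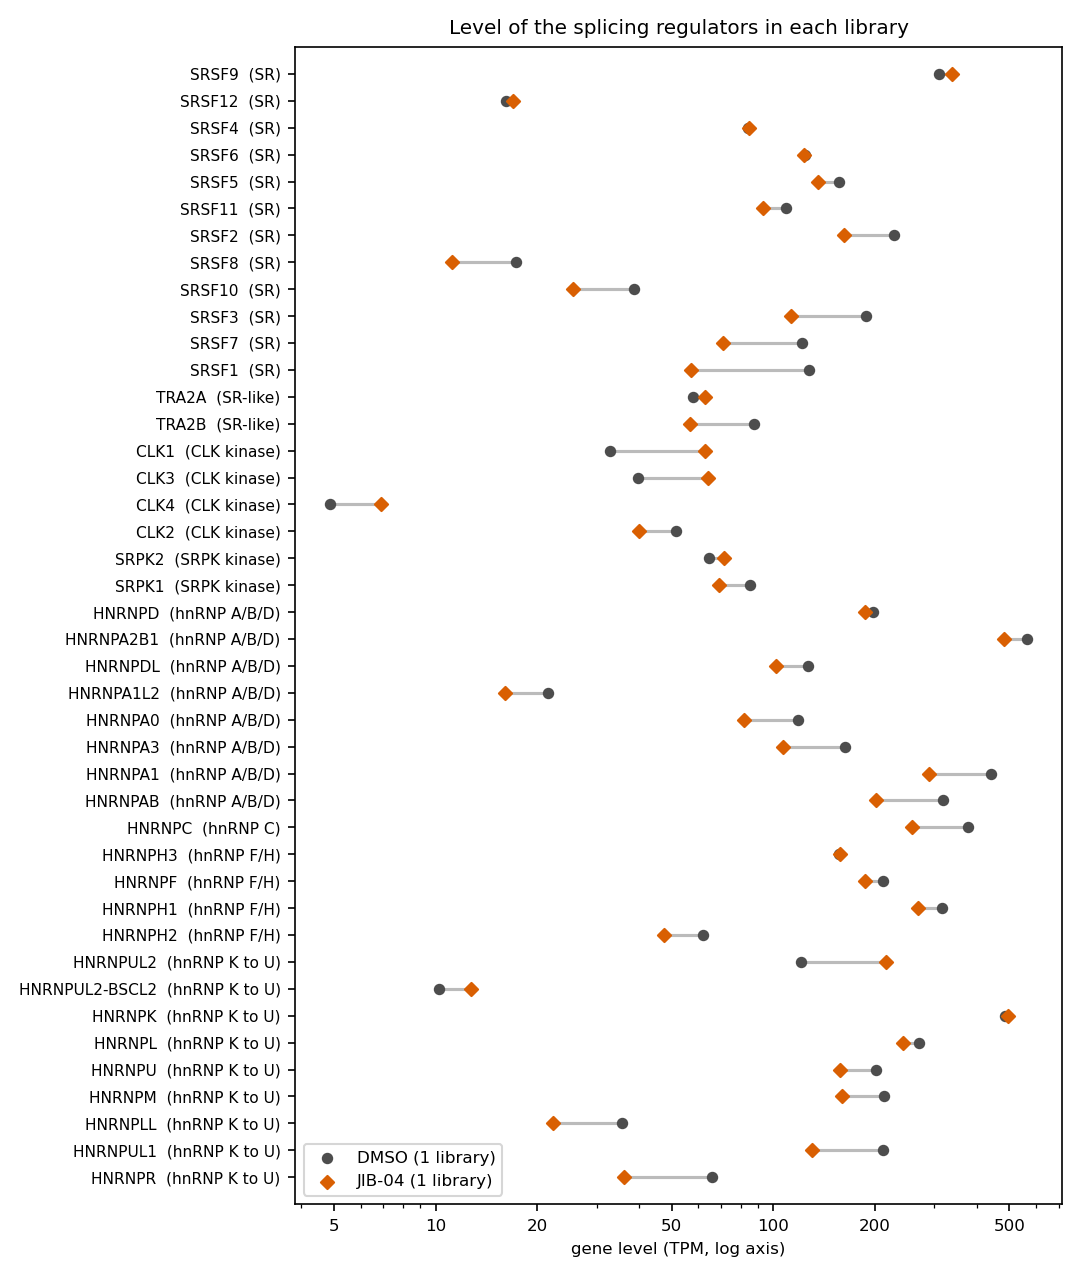
Level of each described splicing regulator in TPM on a log axis, with a circle for the DMSO library and a diamond for the JIB-04 library, grouped by role. HNRNPA2B1 and HNRNPK are the most abundant, CLK4 the least, and most diamonds lie left of their circles, with CLK1, CLK3, CLK4 and HNRNPUL2 as clear exceptions.

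Of the 12 SR protein genes some were clearly lower with JIB-04 and others were nearly level. Their summed level was 1523 TPM in the control and 1233 TPM after JIB-04, with a median log2 ratio of -0.36, and 9 of 12 were below 0 (8 of 12 under the scaling). SRSF1 (chromosome 17, 56078280 to 56084707 of hg19), a general splicing activator, measured 128 TPM in control cells against 56.9 TPM after JIB-04. Its log2 ratio of -1.16 (interval -1.22 to -1.10) was the lowest of the 42 genes. SRSF7 (chromosome 2, 38970741 to 38978636), an SR protein with a zinc knuckle, measured 122 and 71.0 TPM (log2 -0.78, interval -0.86 to -0.69). SRSF3, a small SR protein that also takes part in mRNA export, measured 188 and 113 TPM (log2 -0.72, interval -0.78 to -0.67). Each of these 3 genes lay well below the median of all genes.

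SRSF8 and SRSF10 each had a log2 ratio of -0.58, and SRSF2, a regulator of exon inclusion that also acts in transcription, had -0.49, from 228 TPM to 162 TPM. SRSF11 and SRSF5 were close to the median of all genes, with log2 ratios of -0.22 and -0.20. For SRSF4, SRSF6 and SRSF12 the intervals included 0. SRSF9 was the most abundant SR gene, at 310.3 TPM in the control and 339 TPM after JIB-04, and the only one whose interval lay above 0 (log2 ratio 0.13, interval 0.06 to 0.19). By level, SRSF9 led in both libraries, followed by SRSF2.

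SRSF3 (chromosome 6, 36562090 to 36572244) moved in opposite directions by transcript kind. RefSeq gives the prefix NM_ to transcripts taken to code for protein and NR_ to those taken not to, and SRSF3 has 1 of each. The coding transcript measured 166 TPM in control cells against 77.7 TPM after JIB-04, a log2 ratio of -1.08. The noncoding transcript measured 22.2 and 35.8 TPM, with a log2 ratio of 0.66. The noncoding share of the gene was therefore 11.8% (Clopper-Pearson interval 11.1 to 12.6) with DMSO and 31.5% (30.1 to 33.0) with JIB-04, a gain of 19.7 percentage points. These intervals do not include the uncertainty of assigning reads to overlapping transcripts.

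The noncoding SRSF3 transcript differs by 1 exon of 456 bases (chromosome 6, 36567598 to 36568053 of hg19, plus strand), which GENCODE 29 places in a transcript typed as a target of nonsense-mediated decay. Its reading frame enters the exon and meets a stop after 31 bases. SRSF6 has an exon of the same kind, of 268 bases (chromosome 20, 42087793 to 42088060 of hg19, plus strand), where the frame runs 149 bases to its stop. The translated start of each exon is shown because it is the feature that tells the noncoding transcript from the coding one. The stretches are chr6:36599821-36599854 and chr20:43459153-43459304 of GRCh38, plus strand, from the GENCODE transcripts matched to the RefSeq entries, with the premature stop codon in capitals.
SRSF3: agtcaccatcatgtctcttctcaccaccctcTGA
SRSF6: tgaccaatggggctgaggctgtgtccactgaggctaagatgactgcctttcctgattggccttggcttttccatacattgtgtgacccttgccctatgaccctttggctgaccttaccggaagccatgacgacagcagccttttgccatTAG

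The coverage of these exons can be read without relying on whole transcripts. Coverage here is the deposited number of reads over each base, summed over the transcripts of the gene and not scaled for depth. The SRSF3 exon with the early stop had a coverage of 135 with DMSO and 215 with JIB-04, while the mean of its neighbouring exons went from 1358 to 789. It thus stood at 9.96% of its neighbours with DMSO and 27.3% with JIB-04. The SRSF6 exon had a coverage of 192 and 224, or 49.2% and 63.0% of its neighbours. SRSF6 as a gene was nearly equal in both libraries (124 and 123 TPM), and its noncoding share was 17.1% (16.2 to 18.1) and 21.0% (19.8 to 22.1). In both genes the exon gained relative to its neighbours in the JIB-04 library, by more in SRSF3.

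**Figure D2:**
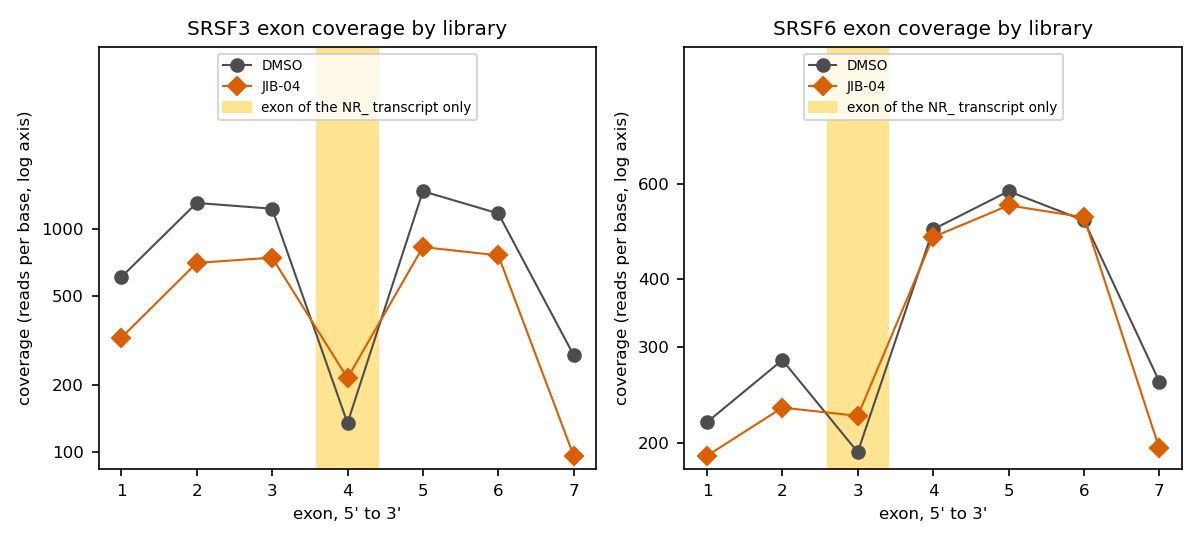
Coverage of each exon of SRSF3 and SRSF6 in order along the gene, on a log axis, for the DMSO library (circles) and the JIB-04 library (diamonds), with the exon found only in the noncoding transcript shaded. At the shaded exon of SRSF3 the JIB-04 point (215) lies above the DMSO point (135), whereas at every other SRSF3 exon it lies below.

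Of the 42 genes 12 had both kinds of transcript, and the noncoding share was higher with JIB-04 in 8 and lower in 4. The gain was at least 10 percentage points in 2 of the 12 (16.7%), SRSF3 and SRSF8, beside 13.3% of the 1856 genes with both kinds, so that count is near the background. No member lost 10 points, beside 11.0% of those genes. The median change was 2.32 points (order-statistic interval over the genes -5.93 to 9.33), beside 0 over all such genes. A gain of at least 5 points was seen in 5 of 12 (41.7%, beside 22.1%), namely SRSF8, SRSF3, HNRNPA1, SRSF1 and CLK1. A loss of at least 5 points was seen in 3 of 12 (25.0%, beside 20.2%), which is near the background. With 12 genes these shares are coarse.

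SRSF8 (chromosome 11, 94800041 to 94804387), a gene closely related to SRSF2, had a noncoding share of 8.84% (7.00 to 11.0) with DMSO and 36.8% (32.3 to 41.4) with JIB-04. The gene measured 17.3 and 11.2 TPM (log2 ratio -0.58, interval -0.74 to -0.43). Its coding transcript was at 15.8 and 7.10 TPM and its noncoding transcript at 1.53 and 4.13 TPM. Both transcripts overlap along most of their length, and the noncoding one lacks a middle segment of 471 bases. Coverage was lower with JIB-04 in all 3 segments of the gene, at 43.2 and 20.3 in the first, 38.0 and 14.1 in the middle one and 40.9 and 23.3 in the last. The share in SRSF8 thus rests on the coverage of the middle segment beside its neighbours, and no exon is found only in the noncoding transcript. GENCODE 29 types that transcript as protein-coding.

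SRSF1 had a noncoding share of 4.44% (3.97 to 4.93) with DMSO and 13.6% (12.3 to 14.9) with JIB-04. Its coding transcripts were at 123 and 49.1 TPM together, a log2 ratio of -1.30, and its noncoding transcript at 5.70 and 7.72 TPM, a log2 ratio of 0.38. As in SRSF8, no segment of SRSF1 is found only in the noncoding transcript. The share in SRSF1 thus rests on how reads over shared segments were assigned, which the intervals do not cover. SRSF2 had nearly the same share in both libraries, 9.61% and 9.23%, and similar log2 ratios of its coding and noncoding transcripts (-0.48 and -0.52). SRSF11 was also nearly level, at 10.4% and 11.2%. The share was lower with JIB-04 in SRSF10 (17.6% and 11.7%), SRPK1 (10.6% and 4.46%) and HNRNPA3 (31.7% and 25.4%). No segment of SRSF2 or HNRNPA3 is found only in the noncoding transcript, so those shares too rest on read assignment. In SRPK1 the only such segment, of 28 bases, had a coverage of 14.3 and 6.88. GENCODE 29 types the noncoding SRPK1 transcript as protein-coding. For SRSF10 the exon coverage again differed from the share. Of its segments found only in the noncoding transcript, the one of 363 bases had a coverage of 51.5 and 56.5 and the one of 58 bases 57.8 and 25.1, while exons on either side had 311 and 155 and 424 and 215. The longer segment thus gained relative to its neighbours although the transcript share was lower.

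HNRNPDL, a relative of HNRNPD, had a noncoding share of 42.9% (41.6 to 44.1) with DMSO and 43.4% (41.9 to 44.9) with JIB-04. Its exon of 105 bases found only in the noncoding transcript had a coverage of 259.8 and 305, while the exon before it had 1276 and 932. In HNRNPDL the transcript share and the exon coverage thus gave different pictures. The last exon of the gene was weakly covered, at 42.2 and 23.4.

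**Figure D3:**
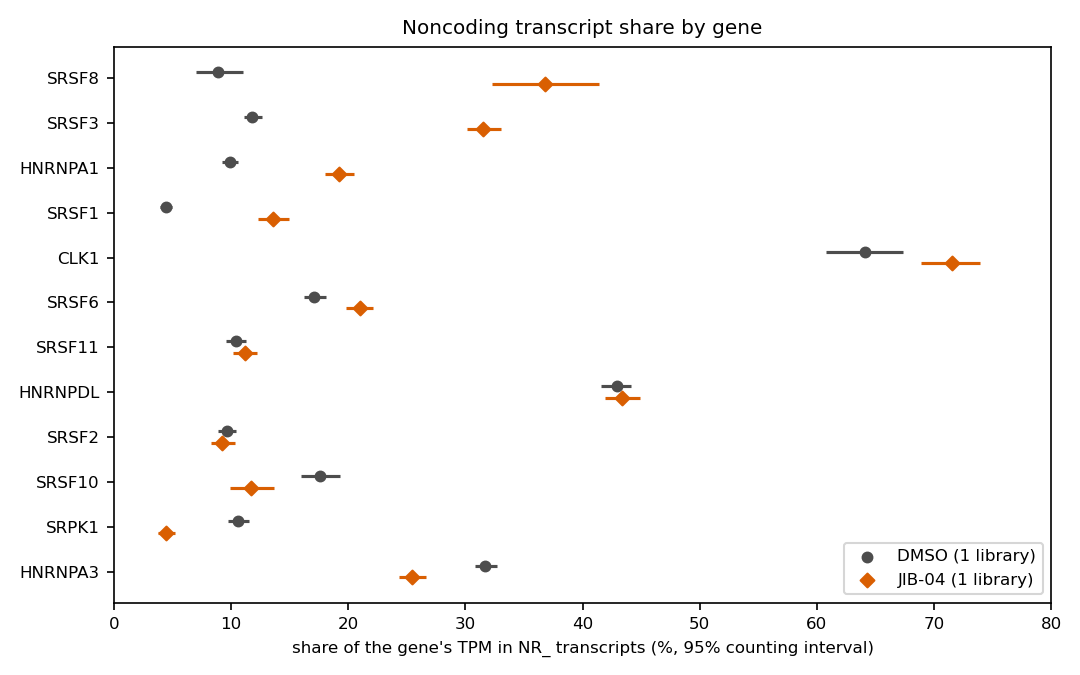
Share of each gene's TPM in noncoding (NR_) transcripts, in percent, for the DMSO library (circles) and the JIB-04 library (diamonds), with 95% Clopper-Pearson intervals for counting error. SRSF8 and SRSF3 show the widest gaps to the right, and HNRNPA3, SRPK1 and SRSF10 lie to the left with JIB-04.

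The CLK kinases phosphorylate SR proteins in the nucleus, and 3 of the 4 genes were higher with JIB-04. CLK1 (chromosome 2, 201717732 to 201729467) measured 32.8 TPM in control cells against 62.8 TPM after JIB-04, and its log2 ratio of 0.92 (interval 0.80 to 1.03) was the highest of the 42 genes. CLK3 (chromosome 15, 74900713 to 74922542) measured 39.8 and 64.3 TPM (log2 0.68, interval 0.57 to 0.78). CLK4 was weakly expressed, at 4.87 and 6.88 TPM, and its interval was wide (log2 ratio 0.43, interval 0.15 to 0.71). CLK2 went the other way, from 51.4 to 40.1 TPM (log2 ratio -0.35, interval -0.47 to -0.23). These 4 kinases together held 129 TPM in the control and 174 TPM after JIB-04.

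The SRPK kinases act mainly in the cytoplasm, where they favour nuclear import of SR proteins, and both were nearer to 0. SRPK1 measured 85.6 and 69.3 TPM (log2 -0.30, interval -0.37 to -0.24), and SRPK2 at 64.7 and 71.5 TPM (log2 ratio 0.14, interval 0.07 to 0.22). Together they held 150.3 TPM in the control and 141 TPM after JIB-04. With DMSO the CLK genes were below SRPK1 and SRPK2 in level, and with JIB-04 CLK1 and CLK3 came close to them.

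CLK1 transcripts differ at exon 4, of 91 bases (chromosome 2, 201724848 to 201724938 of hg19, minus strand), and skipping of that exon is known to give a truncated protein without kinase activity. The length is not a multiple of 3, so the reading frame changes where the exon is left out. The exon is shown as the sequence that tells the CLK1 forms apart, chr2:200860125-200860215 of GRCh38 on the minus strand, with no base in capitals.
CLK1: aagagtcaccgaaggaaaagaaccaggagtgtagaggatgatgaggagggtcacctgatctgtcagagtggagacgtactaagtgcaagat

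The CLK1 form without exon 4 measured 6.78 TPM in control cells against 24.1 TPM after JIB-04. The forms with the exon were at 11.8 and 17.9 TPM, and the form with retained introns was at 14.3 and 20.8 TPM. Among the spliced forms the share without the exon was 36.5% with DMSO and 57.3% with JIB-04, while the form with retained introns took 43.4% and 33.2% of the gene. The form without exon 4 has no segment of its own, so its share rests on how reads over shared segments were assigned. Exon 4, with the retained form included, had a coverage of 75.6 and 78.1. The exon before it had 105 and 159 and the exon after it 115 and 142, so exon 4 rose less than its neighbours. All CLK1 forms were higher in the JIB-04 library, and the form without exon 4 by most. RefSeq counts both the form without the exon and the form with retained introns as noncoding, and their joint share was 64.1% (60.8 to 67.3) and 71.5% (68.9 to 73.9). GENCODE 29 types the form without the exon as protein-coding, so the gain in noncoding share holds under the RefSeq classes only.

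TRA2A and TRA2B encode SR-like proteins that bind purine-rich exonic enhancers, and their ratios lay on opposite sides of 0. TRA2A measured 57.7 TPM in control cells against 63.0 TPM after JIB-04 (log2 ratio 0.12, interval 0.01 to 0.24). TRA2B (chromosome 3, 185632358 to 185655924) measured 87.7 and 56.5 TPM (log2 -0.63, interval -0.70 to -0.55). With JIB-04 TRA2A was slightly above TRA2B, whereas with DMSO it was below.

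**Figure D4:**
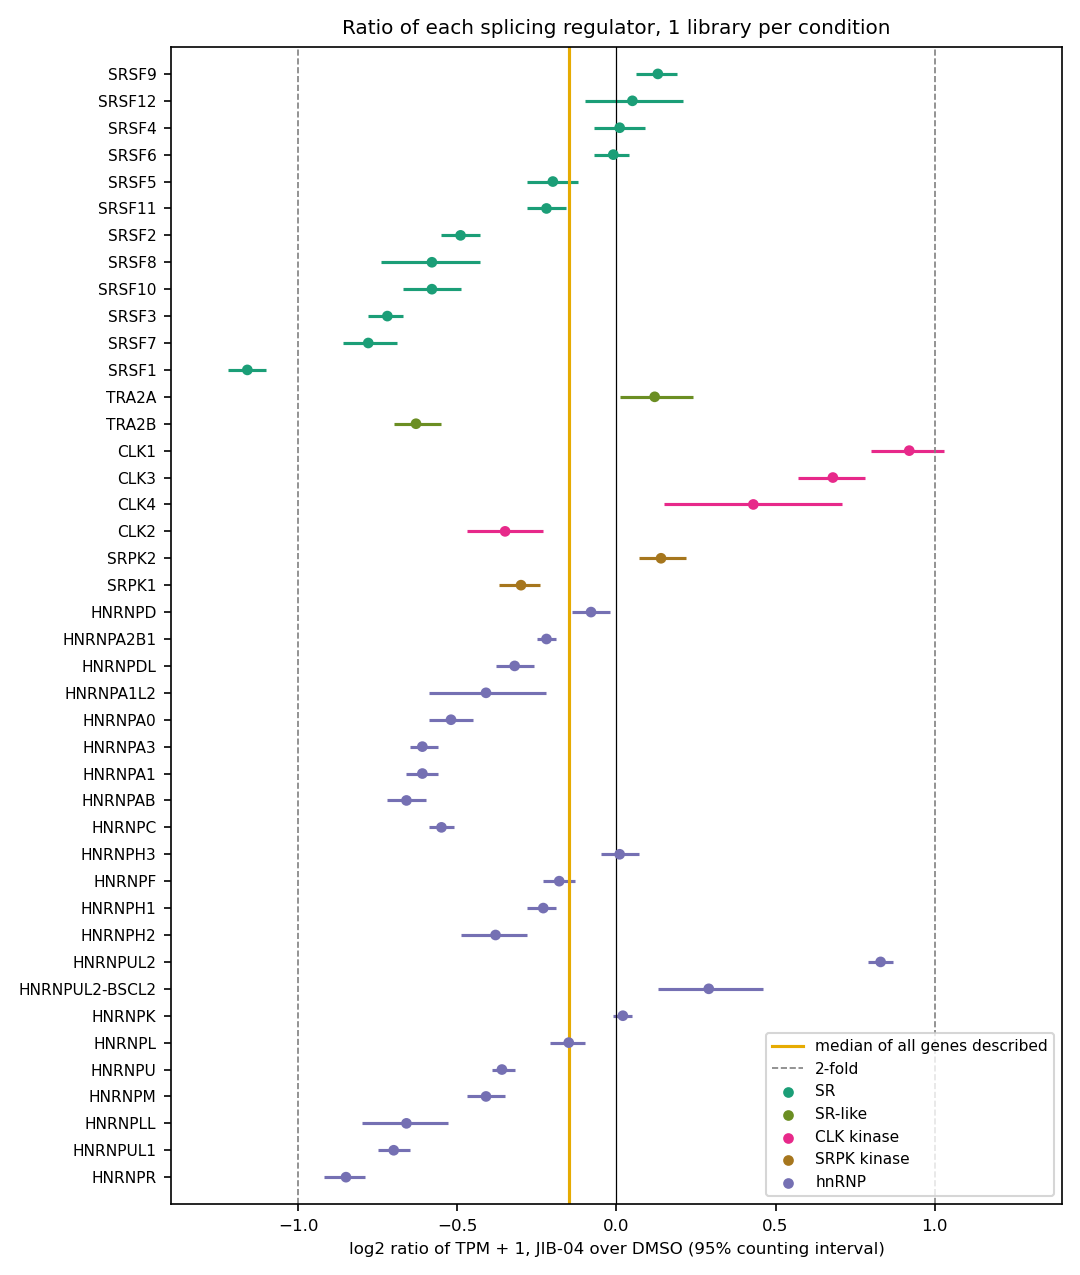
Log2 ratio of TPM + 1, JIB-04 over DMSO, of each described gene, with 95% intervals for counting error, colored by role. Dashed lines mark 2-fold, and the yellow line marks the median of all genes described (-0.15). SRSF1 alone lies beyond 2-fold, and CLK1, HNRNPUL2 and CLK3 are farthest to the right.

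The 22 described hnRNP genes, with HNRNPUL2-BSCL2 counted by its symbol, held 4695 TPM in the control and 3860.0 TPM after JIB-04. Their median log2 ratio was -0.37, and 18 of them were below 0 (16 under the scaling). All 8 genes of the A/B/D group were below 0, with log2 ratios from -0.66 to -0.08, and 7 of the 8 under the scaling. HNRNPA2B1 (chromosome 7, 26229556 to 26240413), an RNA-binding protein of splicing and RNA transport, was the most abundant member with DMSO, at 565 TPM, and stood at 484 TPM after JIB-04 (log2 -0.22, interval -0.25 to -0.19). HNRNPAB measured 319 and 202 TPM (log2 -0.66, interval -0.72 to -0.60). HNRNPA3 was at 163 and 107 TPM and HNRNPA0 at 118 and 81.8 TPM. HNRNPD, which binds AU-rich elements and affects mRNA stability, was close to level at 197 and 187 TPM.

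HNRNPA1 (chromosome 12, 54674474 to 54680872), a repressor of exon inclusion, measured 441 TPM in control cells against 289 TPM after JIB-04, a log2 ratio of -0.61. This value is uncertain, because the annotation also places the entry HNRNPA1P10 on the same strand over 63.2% of the exonic bases of HNRNPA1. HNRNPA1P10 was listed at 788 and 431 TPM, more than HNRNPA1 itself. Added together, both entries were at 1229 and 721 TPM (log2 ratio -0.77, interval -0.80 to -0.74). The first exon shows how reads were split between them, with a coverage of 291 and 4.04 for HNRNPA1 alone but 1648 and 582 for both entries. The noncoding share of HNRNPA1, 9.91% and 19.2%, is subject to the same split. Segments found only in its noncoding transcript lie past the end of HNRNPA1P10, with coverages of 200.4 and 174 and of 48.0 and 57.8. The second exon, summed over both entries, had 4023 and 2018. Relative to that exon, those segments gained in the JIB-04 library. HNRNPA1L2, a gene closely similar to HNRNPA1 in sequence, was at 21.5 and 16.0 TPM.

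HNRNPC (chromosome 14, 21677296 to 21737638) binds uridine tracts and packages nascent RNA, and measured 377 TPM in control cells against 257 TPM after JIB-04 (log2 ratio -0.55, interval -0.59 to -0.51). On exons other than the last, described below, its log2 ratio was -0.17. In the F/H group, whose proteins bind runs of guanine, HNRNPH1 was the most abundant, at 317 and 269 TPM (log2 -0.23, interval -0.28 to -0.19). HNRNPF was at 212 and 187 TPM. HNRNPH3 was level at 157 and 158 TPM. HNRNPH2 was at 62.1 and 47.5 TPM, and shares 92.2% of its exonic bases with a readthrough entry that was listed at 4.21 and 2.65 TPM. The F/H genes as a group lay near the median of all genes, with a median log2 ratio of -0.21, or -0.05 under the scaling.

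Among the other hnRNP genes both the highest and the lowest log2 ratios of the family were found. HNRNPUL2 (chromosome 11, 62480097 to 62494857), related to the nuclear scaffold protein HNRNPU and known from the DNA damage response, measured 121 TPM in control cells against 216 TPM after JIB-04 (log2 ratio 0.83, interval 0.79 to 0.87). The noncoding readthrough entry HNRNPUL2-BSCL2, which covers 46.5% of the exonic bases of HNRNPUL2, was at 10.2 and 12.7 TPM (log2 ratio 0.29, interval 0.13 to 0.46). HNRNPR (chromosome 1, 23631181 to 23670857), an RNA-binding protein that associates with the SMN protein, measured 66.0 and 36.1 TPM (log2 -0.85, interval -0.92 to -0.79). HNRNPUL1, another gene related to HNRNPU, measured 212 and 129.9 TPM (log2 -0.70, interval -0.75 to -0.65). The paralogs HNRNPUL1 and HNRNPUL2 thus differed in opposite directions.

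HNRNPK, which binds cytosine-rich sequence, was abundant and level, at 487 and 495 TPM (log2 ratio 0.02, interval -0.01 to 0.05). HNRNPU was at 202 and 158 TPM, HNRNPM at 213 and 160.0 TPM, and HNRNPL, which binds CA repeats, at 269.6 and 242 TPM. HNRNPLL, a paralog of HNRNPL, measured 35.7 and 22.2 TPM (log2 -0.66, interval -0.80 to -0.53). For SRSF4, SRSF6, HNRNPH3 and HNRNPK the sign of the ratio is not settled, since counting intervals included 0, and under FPKM, which leaves the total of each library free, all 4 were below 0. The interval of SRSF12 included 0 as well. HNRNPD and HNRNPL, with log2 ratios of -0.08 and -0.15, had 0.07 and 0.00 under the scaling, so their sign depends on the scaling.

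The most abundant transcript differed between libraries in 4 of the 35 genes with several transcripts and at least 1 TPM in each library (11.4%, beside 16.3% of 8112 genes), a share below the background. In SRSF5 the leading coding transcript took 49.2% of the gene with DMSO and 20.8% with JIB-04, where another coding transcript led with 44.9%. In HNRNPUL1 the leading transcript of the control took 59.3% of the gene there and 30.3% after JIB-04, and another led with 33.1% in the JIB-04 library. In CLK1 the lead passed from the form with retained introns (43.4%) to the form without exon 4 (38.3%), and in SRSF10 from the noncoding transcript (17.6%) to a coding one (26.3%). SRSF5 was the only 1 of the 35 whose lead passed between transcripts with a margin of at least 10 percentage points of the gene in each library, beside 6.15% of the 8112 genes.

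The last exon, which usually holds most of the 3′ untranslated region, was compared with the other exons after the values had been seen. In 36 members with at least 20 estimated fragments in either portion in each library, the log2 change of the last exon was below that of the other exons in 30 (83.3%, beside 59.7% of 10403 genes). The median difference was -0.29, beside -0.06 over all genes. The last exon was lower than the rest by at least 1 in 4 of the 36 (11.1%, beside 3.02% of all genes), namely HNRNPC, TRA2B, TRA2A and HNRNPD. With at least 100 fragments in each portion 2 of 31 members passed, beside 2.48% of 7430 genes.

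HNRNPC showed the widest gap. Its last exon of 2170 bases had a coverage of 414 with DMSO and 51.8 with JIB-04, while the exon before it had 1796 and 1454. The log2 change was -3.00 for the last exon and -0.40 for the others. In TRA2B the last exon changed by -1.83 and the others by -0.61, and in TRA2A by -1.18 and -0.02. The levels of these genes thus depend on how much weight the last exon takes.

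The same holds for SRSF1, whose last exon changed by -1.64 and whose other exons changed by -0.97 before scaling for depth. On exons other than the last, scaled to their total, SRSF1 had a log2 ratio of -0.74 and SRSF3 of -0.38. HNRNPC had -0.17, TRA2B -0.38, TRA2A 0.21 and HNRNPD -0.10 on these exons, beside a median of -0.15 over all genes. None of the 36 members was at least 2-fold lower there, beside 6.47% of all genes. SRSF1 is thus past 2-fold only with its last exon included. The members with the highest ratios kept similar values on these exons, with 0.82 for HNRNPUL2, 0.81 for CLK1 and 0.65 for CLK3. What set the coverage of the last exons was not tested.

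**Figure D5:**
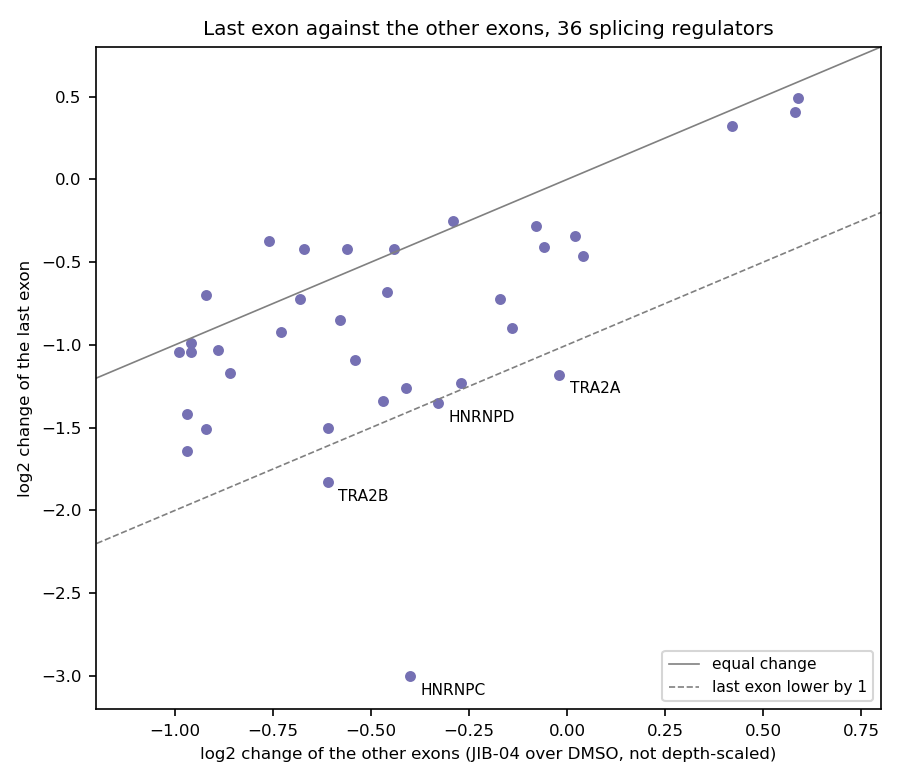
Log2 change (JIB-04 over DMSO) of the last exon against that of the other exons for 36 members, without scaling for depth. The solid line marks equal change and the dashed line a last exon lower by 1. HNRNPC stands apart at -3.00 for its last exon and -0.40 for the rest.

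Other genes of splicing and mRNA decay were set beside the members as 6 lists. Of 15 further hnRNP-type genes described, PTBP2, a polypyrimidine tract binding protein, was the only gene past 2-fold (14.2 and 6.37 TPM, log2 ratio -1.05, interval -1.25 to -0.85), and 10 were below 0 with a median of -0.13 (0.02 under the scaling). Of 18 genes of the U2 particle and of branch point recognition, U2AF1, the small subunit that reads the AG at the 3′ splice site, was the only gene past 2-fold, at 45.0 and 108 TPM (log2 ratio 1.24, interval 1.09 to 1.39). The median of that list was -0.28, with 15 of 18 below 0.

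Core proteins of the small nuclear ribonucleoprotein particles were mostly lower, with 18 of 19 below 0 and a median of -0.31 (15 of 19 and -0.16 under the scaling). SNRPE was at 109 and 57.3 TPM and SNRPD1 at 109 and 58.2 TPM, while TXNL4A was at 48.2 and 59.5 TPM. None of the 19 passed 2-fold. Of 27 further splicing regulators none passed 2-fold, with a median of -0.05 (0.10 under the scaling), from MBNL2 (72.7 and 41.1 TPM) to KHDRBS1 (86.4 and 164 TPM).

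Among 16 genes of nonsense-mediated decay and the exon junction complex none passed 2-fold, and 6 were below 0, with a median of 0.17. CASC3, a part of the exon junction complex, was at 34.9 and 53.2 TPM, and MAGOH, another part of it, at 76.1 and 52.4 TPM. Of 7 listed genes of other SR kinases and nuclear import, 5 were described and none passed 2-fold, with DYRK1A at 21.6 and 37.3 TPM and TNPO1 at 56.0 and 37.1 TPM. In these 6 lists 2 of 100 described genes passed 2-fold in either direction, beside 5.99% higher and 6.88% lower of all genes.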

How the data were processed

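RNA of PLC/PRF/5 cells was sequenced as stranded mRNA libraries, 1 per condition. Processing notes of the submitters list StringTie 1.3.3b, HISAT2 2.0.5 and Bowtie2 2.2.6, beside FastQC 0.11.5 and Trimmomatic 0.32, with the build hg19 (GRCh37). Per the file headers, the authors ran StringTie on annotated RefSeq transcripts only, with a strand setting, and deposited coverage, FPKM and TPM for each transcript and no read counts. Gene symbols came from an NCBI RefSeq table by Entrez ID, which gave 27559 of 27685 genes a symbol. TPM was summed by gene and a pseudocount of 1 was added. The number of fragments was taken as coverage multiplied by length and divided by 202, the number of aligned bases seen most often on genes with little coverage. Ratio intervals are exact conditional binomial intervals, and share intervals are Clopper-Pearson intervals at 95%. By rule, full values went to members past 2-fold, the 5 highest and 5 lowest ratios, all kinases, TRA2A, TRA2B, the most abundant gene of each role and members whose share moved by 10 points, and up to 4 genes were named per list (the 2 highest and 2 lowest). Values of other members, and exons of members other than SRSF3 and SRSF8, were chosen after their values were seen. The members and lists were chosen with earlier results of these data known. The alternatives were other pseudocounts, filters, units, scalings and transcript subsets, and the exons other than the last. Scripts were tested on simulated data. Python 3.11.15, numpy 2.4.6, pandas 2.3.3, SciPy 1.17.1 and matplotlib 3.10.9 were used.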

Additional observations from a re-analysis of the deposited data

How the results depend on the processing

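No paired analysis was possible because each condition has 1 library, and leaving out a library was not possible for the same reason. The count of members at least 2-fold higher was 0 and became 1 (CLK1) when well expressed genes were scaled to a median of 0, and 3 at 1.5-fold (beside 12.8% of all genes). The count at least 2-fold lower was 1 and became 5 with the most abundant transcript of each gene, 3 with coding transcripts only, 10 at 1.5-fold and, in an alternative chosen after seeing the data, 0 on exons other than the last. The share of all genes lower was 8.97% and 6.62% under the first and second of these and 21.0% at 1.5-fold. Members that gained noncoding share numbered 5 at 5 percentage points (beside 22.1% of all genes) and 1 at 20 (5.39%), and those that lost it 3 at 5 points (20.2%). With shares of aligned bases CLK1 and HNRNPA3 did not pass 5 points. Members whose most abundant transcript differed numbered 1 where a lead of at least 10 points was required (beside 6.15%), and members with a lower last exon numbered 2 at a minimum of 100 fragments. The median ratio of the members ran from -0.33 to -0.16 over the alternatives, and the 2 genes past 2-fold in the lists were PTBP2 and U2AF1 as deposited, but 2 higher and 0 lower under the scaling. SRSF1, the only member past 2-fold as deposited, kept its sign, but some smaller ratios did not. With the most abundant transcript of each gene, 26 of 42 members were below 0, beside 30 as deposited. SRSF10 (0.21), SRSF11 (0.81), SRSF5 (0.12), HNRNPA1L2 (0.38) and HNRNPD (0.09) then lay above 0, and TRA2A (-0.01) lay below it. Depth limits CLK4 most, with 145 and 170 fragments, and the intervals of single genes cover counting error only.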
